A study of Mus musculus with 9 samples.

Results

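The end of mouse chromosome 8 holds one of the densest runs of DPPA4 peaks in these lists. The span described here runs from 122500000 to 127000000 on chromosome 8 of the mm9 assembly, a length of 4.5 Mb. Every peak of the 6 deposited DPPA4 lists that overlapped it was taken, 2198 of 229345 peaks or 0.958%. The span was chosen by peak density and peak width, as the lists showed a dense window near 123.0 Mb and a series of very wide peaks from 126.06 to 126.15 Mb, called the wide-peak stretch below. Both measures are therefore given as a description, with no test of the span against the rest.

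DPPA4 was mapped by chromatin immunoprecipitation and sequencing in E14 mouse embryonic stem cells, in P19 embryonic carcinoma cells and in 3T3 cells, with 1 antibody to DPPA4, Nextera library preparation and 2 immunoprecipitated libraries per line. E14 cells were grown without feeders in 2i medium with serum on gelatin, and P19 and 3T3 cells in serum medium. The 3T3 cells, a fibroblast line, carried ectopic Dppa4, whose promoter the labels do not name, and 3T3 cells without it were not analysed here. The labels do not say if both libraries of a line are separate cultures, so their spread may be technical, and the 3 input libraries were not analysed here.

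DPPA4 is a small nuclear protein with a SAP domain, a fold that binds DNA, and it works as a partner of DPPA2. Both genes are active in pluripotent cells and in the germ line and are silent in most other cells. In embryonic stem cells the pair is known to sit at CpG-rich promoters, among them many that carry active and repressive histone marks together. No annotation of mm9 was used here, and peaks were not assigned to genes. In a RefSeq gene table of another assembly, GRCm38, chromosome 8 carries 51 consecutive entries of rRNA genes and pseudogenes between Gas8 and the protein-coding gene Rhou. Of these, 43 are named as 5S rRNA genes or pseudogenes (n-R5s or Rn5s), the tandemly repeated genes that RNA polymerase III transcribes into the small rRNA of the large ribosomal subunit. Whether any peak of the span lies on them was not tested.

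Peaks were several times denser in the span than on the rest of chromosome 8 in every library. The span held 668 and 391 peaks in E14, with 369 and 444 in P19 and 184 and 142 in 3T3. Per Mb these were 148 and 86.9 peaks in E14, against 24.3 and 17.2 on the rest of the chromosome. In P19 they were 82.0 and 98.7 peaks per Mb, against 15.5 and 19.5 on the rest. In 3T3 they were 40.9 and 31.6, against 6.47 and 6.85. The ratio of span to rest thus ranged from 4.61 to 6.32 over the 6 libraries. Peaks covered 8.50% and 9.61% of the span in E14, 6.23% and 8.40% in P19, with 2.41% and 4.59% in 3T3. Read depth is unknown, so a site without a peak may be unbound or below detection.

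**Figure D1:**
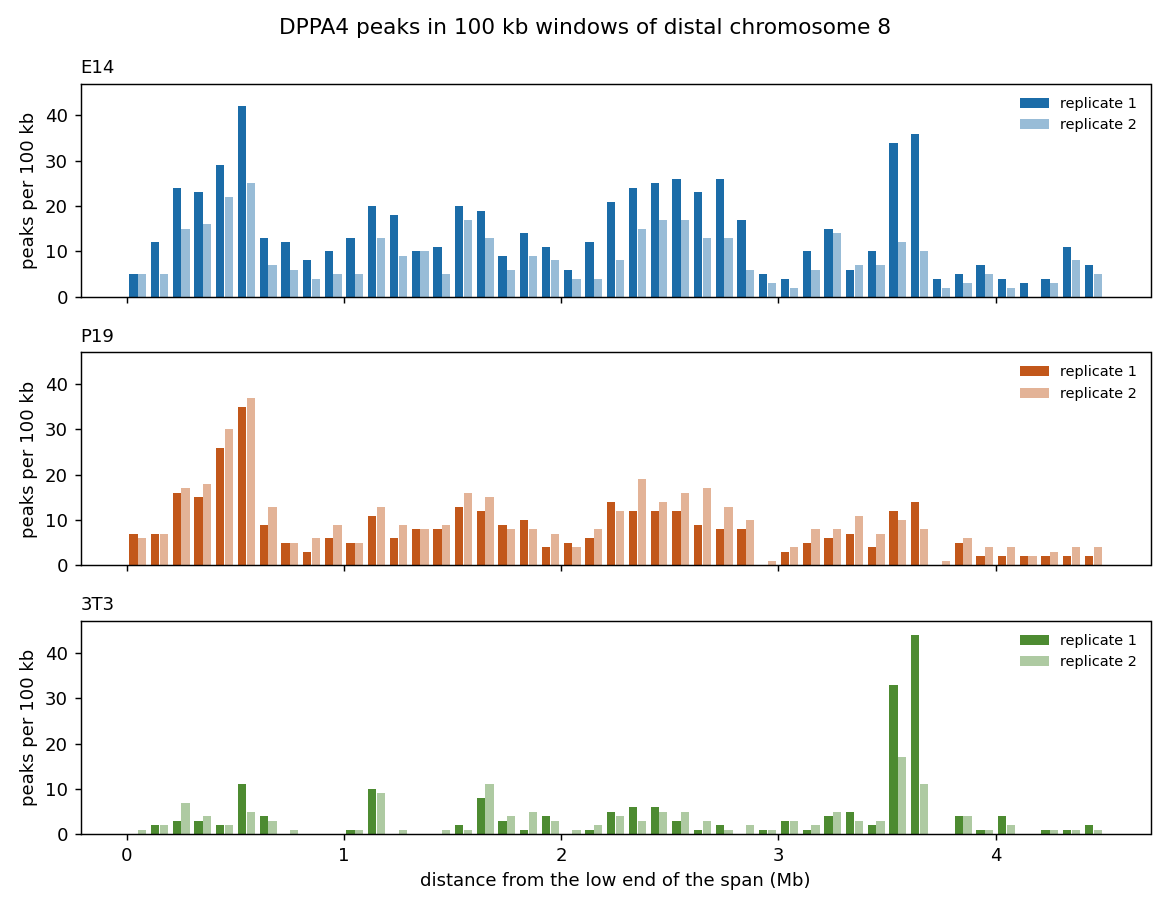
Peaks per 100 kb window (vertical axis) against distance from the low end of the span in Mb (horizontal axis), for E14, P19 and 3T3, with dark bars for replicate 1 and pale bars for replicate 2. E14 and P19 peak 0.5 Mb into the span, with 25 to 42 peaks in that window, while the 3T3 bars are tallest in the windows of the wide-peak stretch, with 33 and 44 peaks in replicate 1.

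The densest of the 45 windows of 100 kb ran from 123000001 to 123100000. E14 had 42 and 25 peaks there and P19 had 35 and 37, with 11 and 5 in 3T3. These counts come from lists of 15462 to 61693 peaks. As a share of the list the window held 0.0681% and 0.0575% in E14, 0.0875% and 0.0723% in P19, with 0.0711% and 0.0285% in 3T3. On this scale 3T3 overlapped E14, and both 3T3 libraries lay below both P19 libraries. By its mean of 25.8 peaks it had rank 5 among the 26424 windows of the placed chromosomes. Its neighbour from 122900001 to 123000000 was nearly as full in E14, with 29 and 22 peaks, and in P19, with 26 and 30, but it held only 2 peaks in each 3T3 library. Its share was 0.0470% and 0.0506% in E14, 0.0650% and 0.0586% in P19, with 0.0129% and 0.0114% in 3T3, so 3T3 lay below both lines on this scale too. The windows of the wide-peak stretch had the ranks next to the densest. From 126100001 to 126200000 E14 had 36 and 10 peaks, P19 14 and 8, and 3T3 44 and 11. From 126000001 to 126100000 E14 had 34 and 12, P19 12 and 10, and 3T3 33 and 17, so that 3T3 had the highest line mean in both. At the low side of the dense block, the windows from 122700001 to 122900000 held 23 and 24 peaks in E14 replicate 1, 15 and 16 in E14 replicate 2, 15 to 18 in P19 and 3 to 7 in 3T3. Windows with more peaks than the 99th percentile of their list numbered 15 and 13 of 45 in E14, against 0.851% and 0.859% of all windows. They numbered 7 and 8 in P19 (0.946% and 0.817% of all windows) and 7 and 5 in 3T3 (0.999% and 0.761%).

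Within the densest window the peaks of E14 and P19 were most frequent in its last 30 kb. The 10 kb bin from 123080001 to 123090000 held 9 and 7 peaks in the E14 libraries, 8 and 8 in P19, with 1 and 0 in 3T3. The next bin held 8 and 3 peaks in the E14 libraries, 7 and 7 in P19, with 1 and 1 in 3T3. Here lay one of the 2 best-ranked regions of E14 and P19 in the span, from 123089918 to 123093773. Its best peaks scored 1668 and 2569 in E14 and 999 and 1304 in P19, with 52.3 and 75.7 in 3T3, where the peaks of the libraries did not overlap each other. Elsewhere in the window 3T3 ranked high, at a region chosen after its values were seen. From 123059353 to 123063231, E14 scored 669 and 607, P19 229 and 270, and 3T3 553 and 2377. Scores are those of the authors' peak caller and can be set side by side only within 1 list. The last of these ranked above 99.6% of the peaks of 3T3 replicate 2, and it was 3879 bp wide.

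Most windows held more E14 and P19 peaks than 3T3 peaks, and list length bore on this count. Both E14 libraries held more peaks than either 3T3 library in 39 of the 45 windows, and both P19 libraries did so in 37. On the share of the list, a scale chosen after the counts were seen, these numbers were 23 for E14 and 21 for P19. With lists of equal length they were 14 and 11, and in 9 windows for E14 and 10 for P19 both libraries lay below both 3T3 libraries. A total of 5 windows (11.1%) had no 3T3 peak in either library, against 61.7% of all windows of the genome. Outside the wide-peak stretch, 2 windows stood out for 3T3 and were chosen after their values were seen. The window from 123600001 to 123700000 held 20 and 13 peaks in the E14 libraries, 11 and 13 in P19, with 10 and 9 in 3T3. The window from 124100001 to 124200000 held 19 and 13 in E14, 12 and 15 in P19, with 8 and 11 in 3T3. In these windows 6 of 12 and 7 of 16 merged regions were held by 3T3, against 1 of 19 in the window from 122900001. The first of them contains the best-scoring peak of 3T3 replicate 2 in the span, from 123639805 to 123642348 with a score of 3066.

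The sparsest windows lay in the last part of the span. The window from 126200001 to 126300000, next to the wide-peak stretch, held 4 and 2 peaks in the E14 libraries, 0 and 1 in P19 and none in 3T3. The window from 126600001 to 126700000 held 3 and 0 in E14, 2 and 2 in P19 and none in 3T3. The next sparsest, from 125400001 to 125500000, held 5 and 3 in E14, 0 and 1 in P19, with 1 and 1 in 3T3. The longest run without a peak in any library was 86.2 kb, from 126668558 to 126754778. At the low border of the span, the first window inside held 5 and 5 peaks in the E14 libraries, 7 and 6 in P19, with 0 and 1 in 3T3. The last window outside held 22 and 11 in E14, 7 and 10 in P19, with 2 and 2 in 3T3. The window before that held 11 and 7 in E14, 10 and 12 in P19, with 4 and 3 in 3T3. The dense part of the chromosome thus reached beyond the chosen border, most clearly in E14. P19 replicate 2 and both 3T3 libraries also held more peaks in these windows than in the first window inside. At the high border, the last window inside held 7 and 5 peaks in the E14 libraries, 2 and 4 in P19, with 2 and 1 in 3T3. The first window outside held 8 and 3 in E14, 1 and 2 in P19, with 2 and 1 in 3T3.

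In the wide-peak stretch, DPPA4 peaks of all 3 lines lay close together over 87689 bp. After merging, the stretch was a single region from 126060946 to 126148634. Its peaks covered 78.3 and 86.8 kb in E14, 87.0 and 87.1 kb in P19, with 51.8 and 84.2 kb in 3T3. The covered part of this region was thus over 95% in 4 libraries, 89.3% in E14 replicate 1 and 59.1% in 3T3 replicate 1. Since the region was built by joining overlapping peaks, each of its bases had a peak in at least 1 library by construction.

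**Figure D2:**
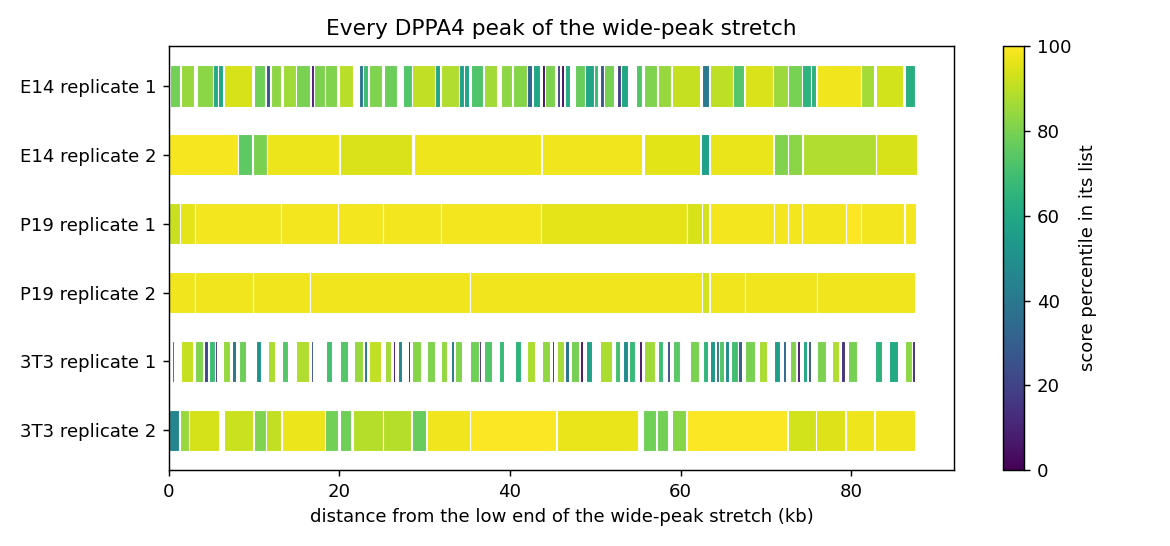
Every peak of the wide-peak stretch as a bar along the distance from its low end in kb (horizontal axis), 1 row per library, coloured by the percentile of the authors' score within the list, with thin white lines at peak borders. P19 replicate 2 filled the stretch with 9 peaks at percentiles of 93.3 or more and 3T3 replicate 1 broke it into 74 peaks.

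The same stretch was cut into few peaks in some libraries and many in others. It held 59 and 14 peaks in the E14 libraries, 17 and 9 in P19, with 74 and 23 in 3T3. Their median width was 1238 and 7076 bp in the E14 libraries, 5067 and 6752 bp in P19, with 713.5 and 3265 bp in 3T3. The libraries with the most peaks, 3T3 replicate 1 and E14 replicate 1, covered the least of it. A count of peaks therefore did not follow the length covered. Both P19 libraries had fewer peaks than both 3T3 libraries and covered more than any other library, while E14 overlapped 3T3 in both measures. The widest peak measured 5075 and 14958 bp in the E14 libraries, 17038 and 27212 bp in P19, with 1481 and 11802 bp in 3T3. It was the widest peak of the whole list in both P19 libraries and in 3T3 replicate 2 and the second widest in E14 replicate 2. In E14 replicate 1 it ranked 15th and in 3T3 replicate 1 it ranked 188th.

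**Figure D3:**
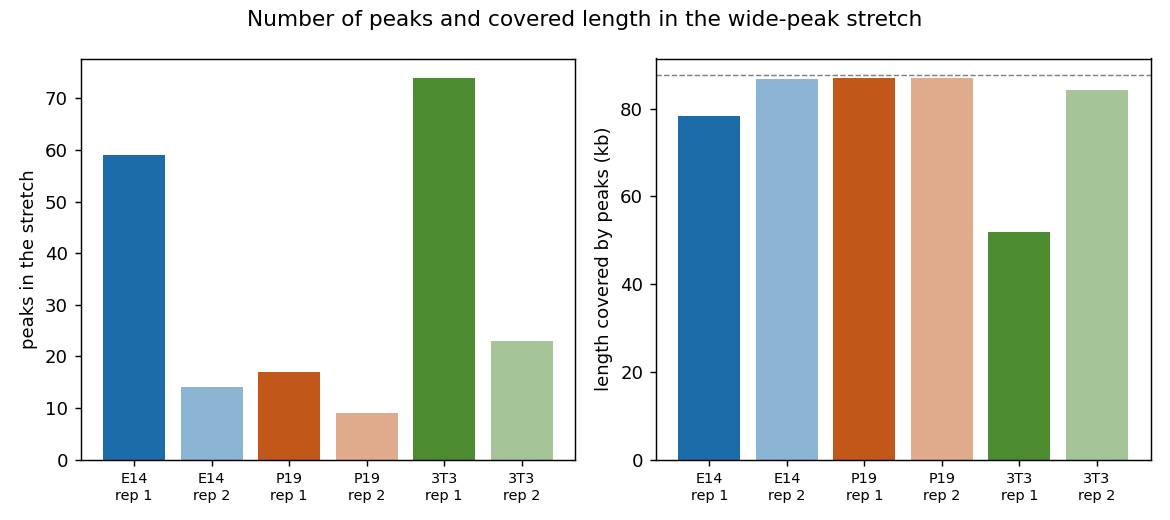
Left, number of peaks in the wide-peak stretch per library. Right, length in kb that these peaks covered, with a dashed line at the whole length of 87.7 kb. The library with 74 peaks, 3T3 replicate 1, covered 51.8 kb, and the library with 9 peaks, P19 replicate 2, covered 87.1 kb.

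Peaks of 2500 bp or more, called broad here, were frequent in the stretch. It held 7 and 9 broad peaks in E14, 9 and 8 in P19, with 0 and 13 in 3T3. Over the whole lists the broad share was 0.16% and 0.707% in E14, 0.27% and 0.397% in P19, with 0.142% and 1.12% in 3T3. The stretch alone held 7.07% and 2.93% of all broad peaks of the E14 lists, 8.33% and 3.94% of those of P19, and none and 6.60% of those of 3T3.

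Peak width chose the stretch and score may go with width, so the scores there are a description only. P19 peaks of the stretch were among the best-scoring of their lists. Of them, 12 of 17 and 8 of 9 reached the score of 3100, at which many peaks of these lists are tied, against 3.5% and 4.12% of all P19 peaks. The lowest percentile of a stretch peak was 91.5 and 93.3 in P19. In E14 the stretch peaks had median percentiles of 77.7 and 94.2 and none reached 3100, against 0.321% and 0.322% of all E14 peaks. In 3T3 the medians were 68.9 and 90.7, and none reached 3100 either, against 0.00647% and 0.0912% of all 3T3 peaks.

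The distance between neighbouring peak starts in the stretch had a median of 1432 bp in E14 replicate 1 and 1070 bp in 3T3 replicate 1, the libraries with the most separate peaks. When the covered bases of 3T3 replicate 1 were shifted along the region by 1000 to 2400 bp, the pattern matched itself best at 1689 bp, with a correlation of 0.39 over bases. It matched worst at 1000 bp, with -0.21. In E14 replicate 1 the best shift was 1681 bp, with a weaker correlation of 0.16. The other 4 libraries left between 602 and 3537 bp uncovered, too little to read a spacing. These shifts are longer than the median distances, and neighbouring bases share peaks, so the correlations are a description only. Gaps overlapped to very different degrees between libraries. All 16 and all 8 gaps between peaks in P19 overlapped a gap of 3T3 replicate 1, as did 12 of 13 in E14 replicate 2 and 48 of 58 in E14 replicate 1. Gaps made up 40.9% of the region in 3T3 replicate 1, far more than in any other library. Within E14 the overlap was lower, at 7 of 58 gaps of replicate 1 with replicate 2 and 7 of 13 in reverse. Within P19 it was 3 of 16 gaps of replicate 1 with replicate 2 and 3 of 8 in reverse. Within 3T3, 21 of 22 gaps of replicate 2 overlapped a gap of replicate 1, and 22 of 73 did so in reverse. Only 2 of 22 gaps of 3T3 replicate 2 overlapped one of P19 replicate 2.

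Near the stretch lay a broad block of peaks that P19 alone held. From 125949568 to 125958558, over 8991 bp, each P19 library had 2 neighbouring broad peaks. They measured 5040 and 3687 bp in replicate 1 and 4861 and 3988 bp in replicate 2. Their scores were 281 and 211 in replicate 1 and 380 and 216 in replicate 2, or percentiles of 63.6 to 76.6 in their lists. No peak of the other lines overlapped the block, and the nearest lay 3.92 and 4.57 kb away in E14 and 8.23 and 7.85 kb away in 3T3. It was the best-ranked region of P19 alone in the span. From 124073715 to 124076732 E14 held an overlapping broad peak in both libraries, 3000 and 2686 bp wide, with scores of 1654 and 650. Its window, from 124000001 to 124100000, held 20 and 17 peaks in the E14 libraries, 13 and 16 in P19, with 2 and 1 in 3T3. The window of the P19 block, from 125900001 to 126000000, held 10 and 7 in E14, 4 and 7 in P19, with 2 and 3 in 3T3. The 3T3 line held no broad peak outside the stretch in replicate 1 and 5 in replicate 2.

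**Figure D4:**
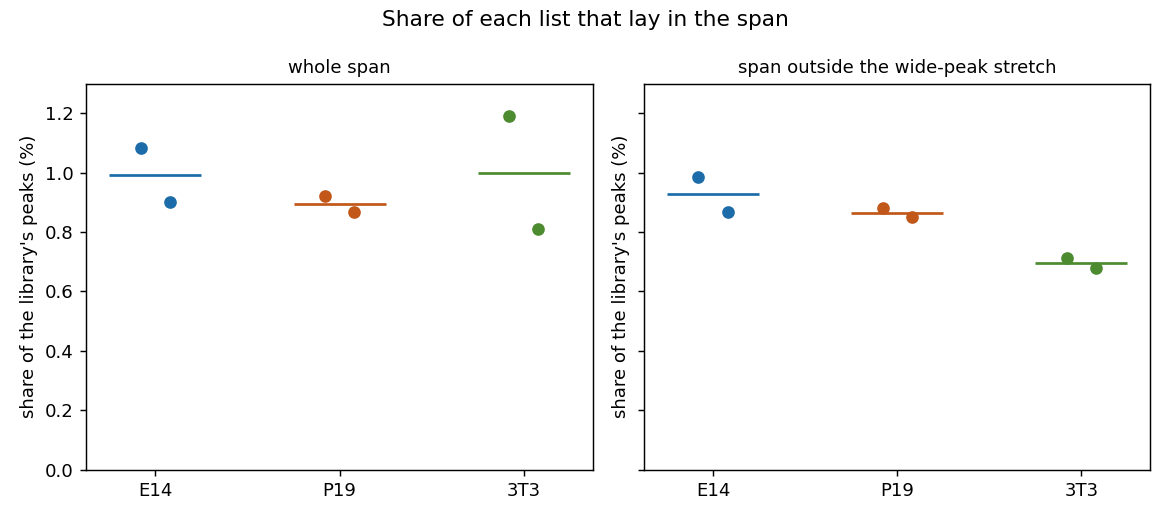
Share of each library's peaks, in percent, that lay in the whole span (left) and in the span outside the wide-peak stretch (right). Points are libraries and lines are means of 2. On the left the 3T3 points, at 1.19% and 0.81%, lie above and below all 4 others, and on the right both 3T3 points lie below all 4 others.

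The share of the lists that lay in the span overlapped between lines, while outside the wide-peak stretch 3T3 lay below E14 and P19. The share was 1.08% and 0.90% in E14, 0.922% and 0.867% in P19, with 1.19% and 0.81% in 3T3. The mean was 0.943% over the 4 E14 and P19 libraries and 1.00% over the 3T3 libraries, a difference of -0.057 percentage points. Peak density chose the span, so no test of these shares is given. The difference was -0.265 with the best-scoring 50% of each list and -0.183 with lists of equal length, and it turned to 0.134 without 3T3 replicate 1. The stretch held 8.83% and 3.58% of the members in E14, 4.61% and 2.03% in P19, with 40.2% and 16.2% in 3T3. Outside the stretch the share was 0.987% and 0.868% in E14, 0.88% and 0.85% in P19, with 0.711% and 0.678% in 3T3. There the mean was 0.896% in E14 and P19 and 0.695% in 3T3, a difference of 0.201 percentage points in which all 4 libraries lay above both 3T3 libraries. That difference in turn depended on list length. With lists shortened to the 15462 peaks of highest score it was 0.018, with 110 and 106 peaks outside the stretch in E14, 110 and 97 in P19, with 110 and 96 in 3T3.

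With full lists, most regions of the span belonged to E14 and P19 together or to one of them. Overlapping peaks found in both libraries of a line were joined into 1 region, and overlapping regions of different lines were then merged. The span held 383 merged regions. E14 and P19 without 3T3 held 164 of them (42.8%, Wilson 95% interval 38.0 to 47.8), against 40.2% of all regions of the genome. E14 alone held 102 (26.6%, 22.5 to 31.3), against 22%, and P19 alone held 50 (13.1%), against 13.7%. All 3 lines held 37 regions (9.66%, 7.09 to 13.03), against 15.4%. 3T3 alone held 16, E14 with 3T3 held 10, and P19 with 3T3 held 4, or 4.18%, 2.61% and 1.04% of the regions, against 4.37%, 3.27% and 1.1%. Only for all 3 lines and for E14 alone did the share of the genome lie outside the interval. These intervals cover counting error alone and treat neighbouring regions as independent.

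**Figure D5:**
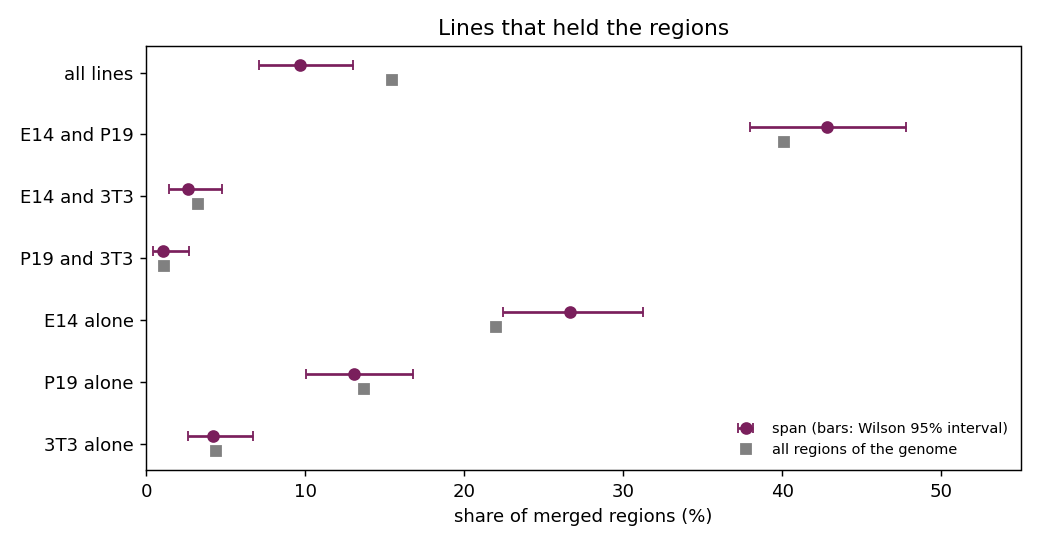
Share of merged regions in percent (horizontal axis) held by each combination of lines, as circles with Wilson 95% intervals for the 383 regions of the span and squares for all regions of the genome. Regions of all lines took 9.66% in the span and 15.4% in the genome.

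The counts of single lines moved when 1 library was left out. Every peak of the other library of its line then counted as a region, with no overlap required. The rule for a region thus changed along with the library, and both effects were not separated. E14 alone held 330 regions without E14 replicate 2 and 55 without P19 replicate 1. P19 alone held 142 without P19 replicate 1, 97 without P19 replicate 2 and 27 without E14 replicate 2. 3T3 alone held 40 without 3T3 replicate 1 and 31 without replicate 2, and all 3 lines held 56 without 3T3 replicate 1. The smallest classes moved too. E14 with 3T3 held 4 regions when P19 replicate 1 was left out and 16 when 3T3 replicate 1 was. For P19 with 3T3 the number was 1 when E14 replicate 1 was left out, 8 when P19 replicate 1 was and 7 when 3T3 replicate 1 was.

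Most regions of P19 were also held by E14 and most of E14 by P19, while 3T3, whose lists are the shortest, held few of either. Of the 273 P19 regions of the span, 218 (79.9%, 74.7 to 84.2) overlapped an E14 region, against 79.4% in the whole genome. Of the 327 E14 regions, 213 (65.1%, 59.8 to 70.1) overlapped a P19 region, against 68.8%. 3T3 held 58 of the E14 regions (17.7%, 13.98 to 22.2), against 23.6%, and 52 of the P19 regions (19.05%, 14.8 to 24.1), against 24%. In the opposite direction, E14 held 68 (77.3%) and P19 62 (70.5%) of the 88 regions of 3T3, against 77.6% and 68.3%. Regions of a line were counted here before merging over lines, so the stretch, a single merged region, entered as several regions of each line. Outside the stretch E14 held 69.7% and P19 60.6% of the 3T3 regions.

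The best-ranked regions of each combination show how the lines differed from place to place. Among regions of all lines the stretch stood first, and next came a region from 124857955 to 124861555. It scored 3100 and 2082 in E14, 2653 and 3100 in P19, with 650 and 884 in 3T3. For E14 and P19 the top region lay from 125154094 to 125155088, where E14 scored 1222 and 1164 and P19 2220 and 2078, with no 3T3 peak. At 137 (83.5%) of the 164 regions of E14 and P19, both 3T3 libraries lacked a peak.

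Most regions that 3T3 shared with 1 line had a peak in a library of the other as well. For E14 and 3T3 the top region lay from 126957233 to 126959003, where E14 scored 394 and 262, P19 replicate 2 alone 113, and 3T3 220 and 769. The next lay from 124900052 to 124901197 and scored 299 and 181 in E14, 113 in P19 replicate 2 alone, and 252 and 564 in 3T3. The first regions of P19 and 3T3 lay from 125897114 to 125898625 and from 123631560 to 123632633. They scored 62.9 and 97.3, and 55.8 and 81.1, in P19, against 223 and 673, and 113 and 340, in 3T3, with a peak scoring 52.9 and 88.1 in E14 replicate 2. Of the 10 regions of E14 and 3T3, 2 had no P19 peak, and each of the 4 regions of P19 and 3T3 had a peak in an E14 library.

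Regions of a single line were clear of the other lines in a minority of cases. Of the regions of E14 alone, 46 of 102 (45.1%) were free of peaks from the other lines, as were 22 of 50 (44.0%) of P19 alone and 6 of 16 (37.5%) of 3T3 alone. The first regions of E14 alone lay from 125166658 to 125167833, with scores of 409 and 393 and a P19 replicate 2 peak of 75.3, and from 122606144 to 122607594, with scores of 415 and 317 and no other peak. Besides the broad block, P19 alone held a region from 124211305 to 124211972 that scored 203 and 411. 3T3 alone held regions from 123191414 to 123192785, with scores of 171 and 658 and P19 replicate 1 peaks of up to 121, and from 124353036 to 124354210, with scores of 252 and 204 and no other peak.

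The libraries of each line covered the span more like each other than like the libraries of the other lines. The Jaccard index over bases, which divides the length covered in both lists by that covered in at least 1, was 0.56 in E14, 0.62 in P19 and 0.48 in 3T3. For E14 with P19 it ranged from 0.48 to 0.55. For 3T3 it ranged from 0.21 to 0.33 with E14 and from 0.23 to 0.37 with P19. There are 15 ways to pair the libraries, and pairs of the same line had the top mean, 0.552, with 0.507 for the runner-up (exact one-sided permutation p = 0.067, the smallest possible). Outside the stretch the indices were lower, at 0.49 in E14, 0.52 in P19 and 0.40 in 3T3, and between 0.11 and 0.19 for E14 or P19 with 3T3. Pairs of the same line again had the top mean there, 0.469, with 0.418 for the runner-up (exact one-sided permutation p = 0.067, the smallest possible). The same order held over the whole genome, so it was not particular to the span. The genome indices were 0.53 in E14, 0.55 in P19 and 0.39 in 3T3. Same-line pairs had a mean of 0.491 there, with 0.456 for the runner-up. Of the members, 64.8% and 85.4% overlapped a peak of the other library in E14, 84.8% and 64.4% in P19, with 88.6% and 62.7% in 3T3. Over whole lists these shares were 66.7% and 86.5% in E14, 87.7% and 65.2% in P19, with 86.8% and 63.9% in 3T3.

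Outside the stretch the members ranked below the rest of chromosome 8 by median score in E14 and P19. Their median score percentile was 45.7 and 44.9 in E14, 44.6 and 42.9 in P19, with 55.5 and 44.6 in 3T3. On the rest of chromosome 8 the medians were 50.1 and 48.5 in E14, 50.4 and 50.4 in P19, with 51.8 and 56.4 in 3T3, so the span lay lower in 5 of 6 libraries. Of these members, 32 of 609 and 18 of 377 in E14, and 8 of 352 and 17 of 435 in P19, stood in the highest score decile of their list, which holds 10% of all peaks. In 3T3 the numbers were 16 of 110 and 16 of 119. The share in that decile was thus 2.27% to 5.25% in E14 and P19 and 14.5% and 13.4% in 3T3. The decile itself held 1547 and 1754 peaks in 3T3, against 4002 to 6170 in E14 and P19. List length may bear on this difference, which was not tested with lists of equal length. The decile share on the rest of chromosome 8 is not given here. The median width outside the stretch was 403 and 809 bp in the E14 libraries, 457.5 and 560 bp in P19, with 440 and 867 bp in 3T3. On the rest of the chromosome it was 417 and 775 bp in the E14 libraries, 451 and 548.5 bp in P19, with 415 and 900 bp in 3T3.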

How the data were processed

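Each deposited list holds 5 columns, with the position, name and score of each peak. The score is that of the authors' peak caller. The peak names begin with MACS, per the deposited files, and the sources used here give no version, threshold or control for it. Per the submitters' processing notes, the tools included SAMtools 1.3, BWA 0.7.13-r1126, bcl2fastq 1.8 and CASAVA 1.8, and the build was mm9. Peaks were called per library. Read depth is unknown.

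Scores were turned into percentiles within a list. Peaks overlapped at 1 bp or more and entered 100 kb windows by their midpoint. Windows ran to the last peak of each chromosome. Named were the 5 densest and 3 sparsest windows, windows with a broad peak in both libraries of a line, and the 2 best-ranked regions of each combination. Members and lists were chosen with earlier results of these data known. SciPy 1.17.1, pandas 2.3.3 and NumPy 2.4.6 were run under Python 3.11.15, with plots by Matplotlib 3.10.9. Overlaps were tested on simulated data of 2595 sites, which returned 100% of each combination. The simulated sites lay far apart, with a single peak of limited width per library. Joining of close or very wide peaks, as in the wide-peak stretch, was therefore not tested. The permutation test planned for the share of a list is not reported, since peak density chose the span. No sequence was printed, since no mm9 genome was used.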

Additional observations from a re-analysis of the deposited data

How the results depend on the processing

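Read depth limits all lists in an unknown way. Labels give the replicate numbers no shared origin, and deviations of same-numbered libraries correlated by -0.04 to 0.02 over 3331 windows. The difference in share was -0.057 percentage points, and 0.201 outside the stretch. A replicate block bears only on the permutation test that is not reported, so it could not change these values. Between lines, same-numbered libraries had a mean index of 0.364, against 0.352 with different numbers. The share difference turned to 0.201 without the wide-peak stretch and to 0.134 without 3T3 replicate 1, and was -0.247 without 3T3 replicate 2. Its range over left-out libraries outside the stretch was 0.171 to 0.218, an alternative chosen after seeing the data. Same-line agreement ranged from 0.519 to 0.588 with libraries left out.

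With the best-scoring 50% of each list the mean member counts were 252 in E14, 185.5 in P19 and 93 in 3T3. Regions then numbered 19 for all lines, 80 for E14 and P19, 0 for P19 and 3T3, 42 for E14 alone and 26 for P19 alone, with 24.2% of E14 regions held by 3T3 and 60.0% of 3T3 regions held by P19. With 15462 peaks per list the mean member counts were 130 in E14, 116.5 in P19 and 151.5 in 3T3, against 529.5, 406.5 and 163 with full lists. By library the shortened lists held 141 and 119 members in E14, 127 and 106 in P19, with 184 and 119 in 3T3. Only 3T3 replicate 1 thus lay above all others, and 74 of its members lay in the stretch. The share difference was -0.183 there and -0.265 with the best-scoring 50%. Regions numbered 13 for all lines, 37 for E14 and P19, 26 for E14 alone, 24 for P19 alone and 40 for 3T3 alone, and the shares were 31.9% of E14 regions held by 3T3, 65.5% of P19 regions held by E14, and 50% and 43.2% of 3T3 regions held by E14 and P19. Fewer peaks entered in both. With 500 bp peaks 3T3 alone held 30 regions, and E14 and P19 held 58.8% and 45.9% of 3T3 regions. With peaks of either library the counts were 89 for all lines, 262 for E14 and P19, 230 for E14 alone, 94 for P19 alone and 29 for 3T3 alone.

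With 1 library left out, every peak of the remaining library of its line counted as a region. Regions of all lines then numbered 38 to 56 and those of E14 and P19 145 to 210. E14 with 3T3 held 4 to 16, and P19 with 3T3 held 1 to 8. E14 alone held 55 to 330, P19 alone 27 to 142 and 3T3 alone 12 to 40. The shares ranged from 48.1% to 81.7% for E14 regions held by P19, 17.7% to 25.4% for E14 by 3T3, 65.8% to 89.0% for P19 by E14, 16.0% to 27.5% for P19 by 3T3, 66.2% to 84.1% for 3T3 by E14 and 60.6% to 81.8% for 3T3 by P19. With windows shifted by 50 kb the densest window held 33 peaks on average and began at 126050001, so the stretch took first place. It held 40.2 with windows of 200 kb. At 5000 bp or more, broad peaks of the stretch averaged 4.5 in E14 and 2.5 in 3T3. The median percentile of members minus the rest was -2.71 in E14 against the whole list, and -4.05 in E14, -6.65 in P19 and -4.02 in 3T3 without the stretch, against -2.0, -4.23 and 5.0 with it. The cause of these shifts was not tested.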
